A study of Mus musculus with 4 samples.

Results

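A set of 37 DNA repair and checkpoint genes was followed in fetal liver RNA from 2 wild-type mice and 2 mice labelled hnRNP L -/-. The 37 genes were a fixed list of symbols, all found among the 22011 genes of the deposited tables, and each was represented by its most-read transcript, counted over the 4 libraries. hnRNP L is an RNA-binding protein that regulates splicing, and the series compared fetal liver cells with and without it. The mice are labelled only by genotype, with 2 libraries of each. The 2 of each genotype are called replicates 1 and 2 of WT or of KO. The growth protocol names C57BL/6, LckCre transgenic, a Gt(ROSA)26Sor reporter strain and CD45.1 mice for the whole study without saying which of them gave these livers. No source used here gives the kind of deletion, any Cre used, the embryonic day, the litters or the slide that each library ran on. Whether slide followed genotype is therefore not known, and an effect of slide cannot be separated from one of genotype here. The p-values set the genotype difference against the spread within genotype, estimated from these 4 libraries only.

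DNA damage is sensed by the kinases Atm, Atr and Prkdc. Broken chromosomes are mended either by homologous recombination, which copies the sister chromatid and works in S and G2 phase, or by non-homologous end joining, which can act throughout the cell cycle. Crosslinks go through the Fanconi anaemia pathway, and damaged or mismatched bases through base excision, nucleotide excision and mismatch repair. Fetal liver is the site of fetal blood formation and is rich in dividing erythroid precursors. Fanconi anaemia genes are best known for bone marrow failure when they are lost.

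Of 31 members with a promoter window in the RefSeq table (GRCm38.p6, 250 bases before to 50 after the gene start), 7 held a word of the E2F type, the class of sites bound by E2F factors at S phase genes. The words searched on both strands were TTTCCCGC, TTTCGCGC, TTTGCCGC and TTTGGCGC. A gene was counted where any of its windows held a word: 2.6% of all 27025 genes of the table and 3.29% of the 17492 protein-coding genes, against 22.6% of the members. Of the 7 members, Bard1, Brca2, Chek2 and Msh6 were lower in the knockout libraries by the test described below, and Fancg, Mdc1 and Xrcc6 did not pass it. The 4 windows of the lower members and, for contrast, that of Xrcc6 are shown on the gene's strand, 5′ to 3′, with the word, or its reverse complement where it lies on the other strand, in capitals.
Bard1: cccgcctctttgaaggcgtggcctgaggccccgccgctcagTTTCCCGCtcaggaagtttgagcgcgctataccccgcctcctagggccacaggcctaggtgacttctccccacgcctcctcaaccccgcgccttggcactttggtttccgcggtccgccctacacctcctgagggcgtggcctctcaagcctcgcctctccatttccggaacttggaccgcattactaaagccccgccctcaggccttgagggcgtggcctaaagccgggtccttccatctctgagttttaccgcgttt
Brca2: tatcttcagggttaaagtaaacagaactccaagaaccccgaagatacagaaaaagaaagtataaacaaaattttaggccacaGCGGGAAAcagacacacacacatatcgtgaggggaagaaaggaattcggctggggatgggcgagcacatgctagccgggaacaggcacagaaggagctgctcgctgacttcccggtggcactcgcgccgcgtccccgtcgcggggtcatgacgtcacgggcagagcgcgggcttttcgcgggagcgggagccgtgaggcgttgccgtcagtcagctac
Chek2: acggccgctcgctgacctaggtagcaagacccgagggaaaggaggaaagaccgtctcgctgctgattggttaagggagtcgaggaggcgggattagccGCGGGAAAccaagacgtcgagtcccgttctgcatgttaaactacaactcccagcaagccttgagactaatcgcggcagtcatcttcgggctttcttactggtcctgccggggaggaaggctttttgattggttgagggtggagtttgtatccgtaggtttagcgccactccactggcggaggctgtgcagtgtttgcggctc
Msh6: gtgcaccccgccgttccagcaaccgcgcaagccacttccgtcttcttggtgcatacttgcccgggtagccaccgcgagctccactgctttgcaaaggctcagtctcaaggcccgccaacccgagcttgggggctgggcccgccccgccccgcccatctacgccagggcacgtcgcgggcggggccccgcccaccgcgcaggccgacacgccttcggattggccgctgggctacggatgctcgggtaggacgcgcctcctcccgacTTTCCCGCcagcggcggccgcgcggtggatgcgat
Xrcc6: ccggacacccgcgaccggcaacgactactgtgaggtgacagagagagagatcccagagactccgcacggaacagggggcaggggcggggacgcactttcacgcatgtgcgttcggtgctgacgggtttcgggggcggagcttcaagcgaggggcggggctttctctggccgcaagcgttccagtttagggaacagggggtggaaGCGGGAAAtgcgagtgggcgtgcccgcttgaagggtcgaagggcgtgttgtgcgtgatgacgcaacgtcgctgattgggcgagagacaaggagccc

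The windows lie at chr1:71102923-71103222 on the minus strand for Bard1, and on the plus strand at chr5:150522371-150522670 for Brca2, chr5:110839733-110840032 for Chek2, chr17:87974800-87975099 for Msh6 and chr15:82016119-82016418 for Xrcc6. Relative to the annotated start, the word began at -209 in Bard1, -168 in Brca2, -152 in Chek2, 15 in Msh6 and -46 in Xrcc6. It was present in 4 of the 12 lower members that had a window and in 3 of the 19 that did not pass the test. The letters CCAAT, on either strand, stood in a window of 19 of the 31 members (61.3%), against 41.1% of all genes. They were in 7 of the 12 lower members and in 12 of the other 19. These matches are a description of the letters and carry no measurement of binding. Rad50, Nbn, Fancd2, Wrn, Xpc and Prkdc had no window in the table.

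Depth, as reads on the transcripts used, was 33738843 in WT replicate 1, 56895360 in WT replicate 2, 47700336 in KO replicate 1 and 48162919 in KO replicate 2. Levels are in counts per 1000000 (CPM), after TMM scaling of the libraries, in the order WT replicate 1, WT replicate 2, KO replicate 1 and KO replicate 2. The ratio KO/WT is the fold change fitted by edgeR's quasi-likelihood test, with its 95% interval, and every adjusted p is from that test with Benjamini-Hochberg adjustment over 15028 genes. A gene is called lower or higher at an adjusted p under 0.05. Hnrnpl itself stood at 460, 603, 280 and 269 CPM, with a KO/WT ratio of 0.516 and an edgeR adjusted p of 0.0114. Both knockout libraries were below both wild-type libraries, with reads of the gene still present in each; the deleted stretch is not given, so its remaining reads could lie outside it.

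All 37 members were expressed above the filter on low counts, and 15 of them fell in the knockout libraries, while 0 rose and 22 did not pass the test. At an unadjusted p under 0.05, 19 were lower and 0 higher; DESeq2 called 16 lower and limma voom 15, each with 0 higher. Over all 15028 genes tested, 9.44% were called lower and 11.4% higher. Among the 10929 genes with a mean of at least 4.84 CPM, the mean of the lowest member, 12.1% were called lower. Both knockout libraries were below both wild-type libraries in 28 members, against 31.7% of all genes. They were above them in 0 members, against 33.5%, and the groups overlapped in 9. These counts are on TMM-scaled CPM and depend on that scaling. On the deposited RPKM values, Atm, Rad50, Mre11a, Fanca, Fancb, Xrcc5, Xrcc6 and Ercc1, all among the 28, overlapped between groups. Xrcc1 and Rad52, which overlapped on CPM, did not overlap on RPKM. Xrcc1, at 11.33, 11.10, 12.24 and 12.35, had both knockout libraries above both wild-type libraries. Rad52, at 5.97, 5.79, 5.78 and 5.64, had both below. None of these genes passed the test. The median log2 fold change of the members was -0.33, beside 0.02 over all genes, and 34 members were below 0. Summed over the members, the level was 2767 and 2951 CPM with wild-type genotype against 2171 and 2224 CPM with knockout genotype. In whole-liver RNA, fewer cells of a type and less RNA per cell cannot be told apart.

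**Figure D1:**
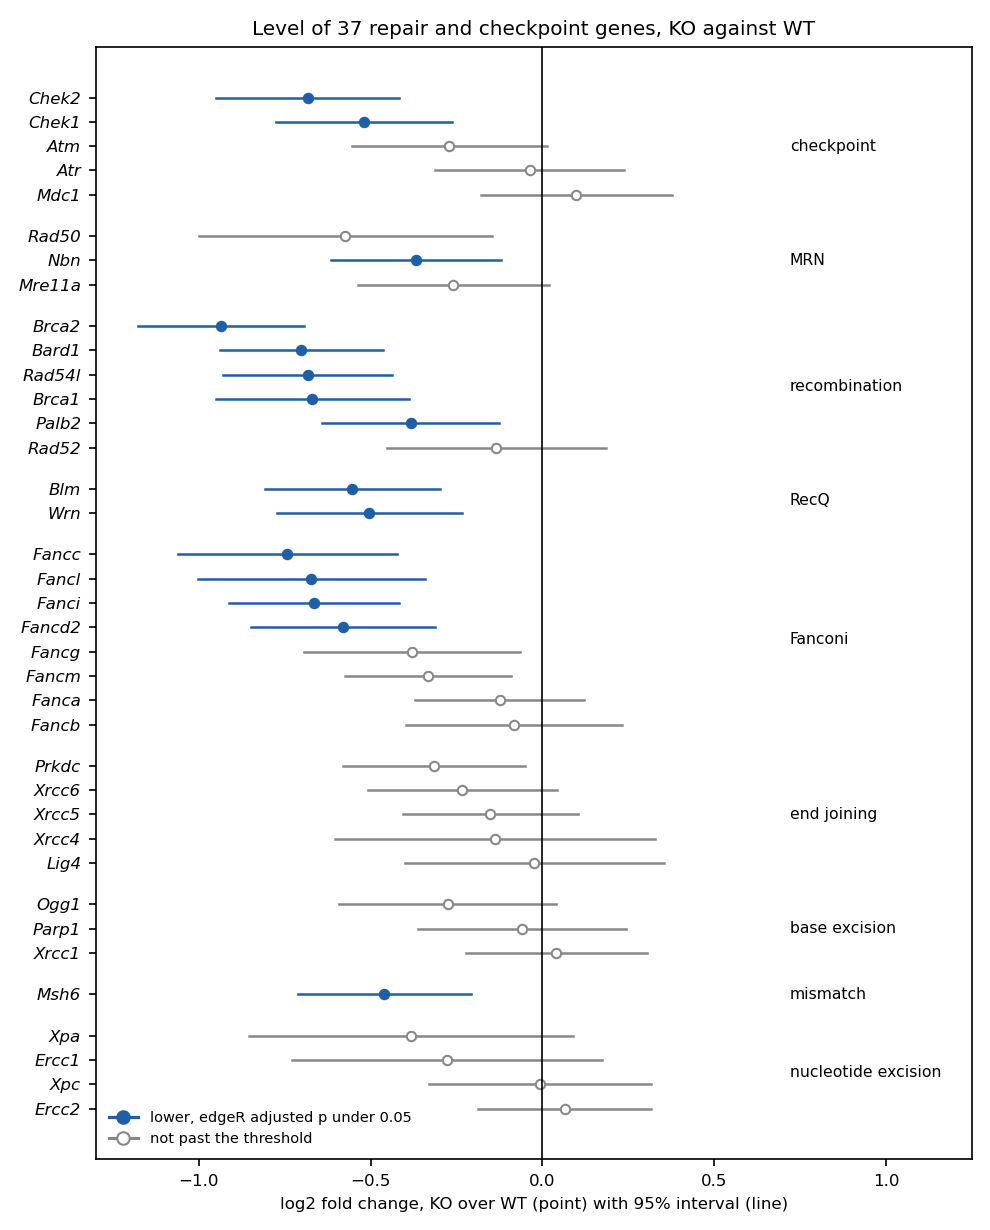
Points give the log2 fold change of each of the 37 members, KO over WT, by role, and lines the 95% interval of the edgeR fit; filled points passed an adjusted p of 0.05. The 15 filled points all lie below 0, from -0.94 for Brca2 to -0.37 for Nbn, and the end joining, base excision and nucleotide excision groups hold open points only.

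The number of members called depended on single libraries. Leaving out WT replicate 1 gave 12, WT replicate 2 gave 6, KO replicate 1 gave 11 and KO replicate 2 gave 6, with 0 higher in each. Chek2, Brca2, Bard1, Rad54l and Fanci passed whichever library was left out, and all 15 kept a fold change below 0 in every alternative run. The rest of the 15 lost the call at least once, as given for each below.

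Of 6 homologous recombination genes 5 were called lower (3 without WT replicate 2 or KO replicate 2), with a median log2 fold change of -0.68, and their summed level was 651 and 656 CPM in the wild type against 420 and 393 CPM in the knockout. Brca2, which is required for accurate recombination repair, had 130, 122, 65.4 and 66.6 CPM. Its knockout values were close to each other and far below both wild-type values. The KO/WT ratio was 0.523 (95% interval 0.442 to 0.618; edgeR adjusted p = 0.00546), the lowest of any member. The gene is placed by the files at chr5:151325205-151372324 on the plus strand, in a build that no source used here names.

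Brca1 and Bard1 form the ubiquitin ligase that acts upstream of Brca2. Bard1 measured 124, 127, 78.2 and 75.9 CPM, so that the groups stood apart by much more than the replicates within them. Its ratio was 0.615 (0.522 to 0.725; edgeR adjusted p = 0.00848). Brca1 measured 255, 264, 173 and 153 CPM, with both knockout libraries below both wild-type libraries. The ratio of 0.629 (0.517 to 0.764) had an edgeR adjusted p of 0.0136, which became 0.0519 when WT replicate 2 was left out and 0.0567 when KO replicate 2 was. Palb2, the bridge between Brca1 and Brca2, was at 37.5, 38.7, 29.3 and 29.1 CPM. These groups did not overlap either, and the ratio was 0.767 (0.641 to 0.917; edgeR adjusted p = 0.0468). That call was lost whichever library was left out, with adjusted p from 0.101 to 0.188, and at 0.0508 when all transcripts of a gene were summed.

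Rad54l, a motor protein that acts on DNA during strand exchange, had 82.4, 84.7, 54.0 and 50.1 CPM. The knockout values were again the lower pair, with a ratio of 0.623 (0.525 to 0.738; edgeR adjusted p = 0.00992). Rad52, a strand-annealing protein, was the exception in this group. It measured 21.98, 19.71, 19.97 and 17.98 CPM, and the groups overlapped. Its ratio was 0.911 (0.731 to 1.14), an interval that holds no change as well as a reduction, with an edgeR adjusted p of 0.512.

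**Figure D2:**
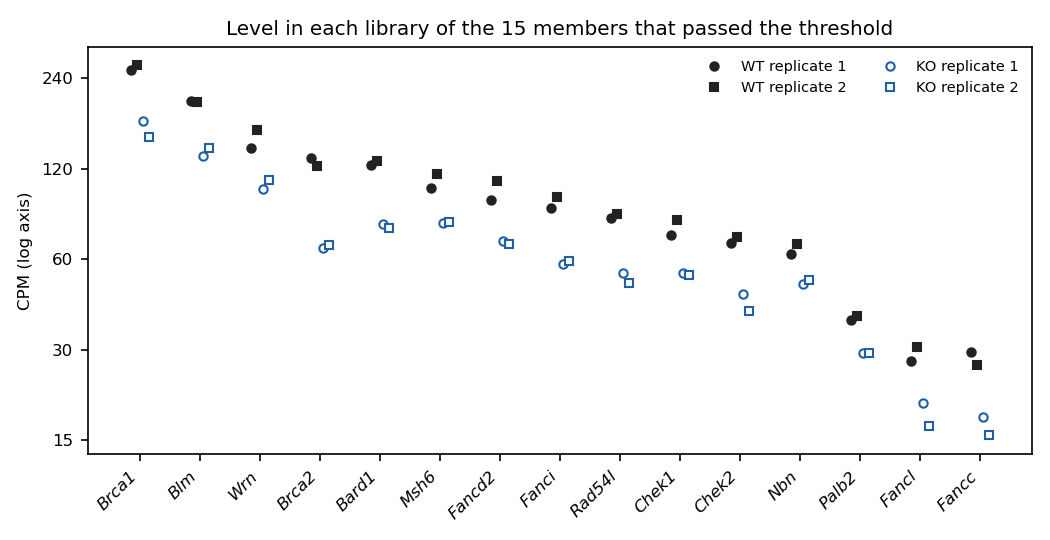
The level of the 15 lower members in each library is plotted on a log axis in CPM, with filled symbols for wild type and open symbols for knockout. In every one of the 15 both open symbols lie below both filled ones, from Brca1 at 153 to 264 CPM down to Fancc at 15.5 to 29.4 CPM.

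Both RecQ helicases among the members, enzymes that unwind recombination intermediates and stalled forks, fell. Among the further repair genes described below, Recql4 was called lower (edgeR adjusted p = 0.0245). Recql and Recql5 did not pass (edgeR adjusted p = 0.565 and 0.293). Blm measured 201, 199, 132 and 141 CPM, with the knockout libraries clearly the lower pair. Its ratio was 0.681 (0.571 to 0.813; edgeR adjusted p = 0.0168), and the adjusted p was 0.0557 without WT replicate 1 and 0.0607 without WT replicate 2. Wrn measured 141, 161, 103 and 110 CPM, without overlap. Its ratio was 0.705 (0.585 to 0.851; edgeR adjusted p = 0.0249), with adjusted p of 0.123 when WT replicate 2 was left out, 0.0777 for KO replicate 1 and 0.0684 for KO replicate 2.

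Of 8 Fanconi anaemia genes 4 fell (2 without WT replicate 2 and 1 without KO replicate 2), and in all 8 both knockout libraries were below both wild-type libraries. That separation was on TMM-scaled CPM, and 31.7% of all genes tested showed it too. Over all genes tested 9.44% were called lower. On the deposited RPKM values the groups overlapped in Fanca, at 5.89, 6.83, 5.91 and 6.52, and in Fancb, at 2.73, 2.85, 2.61 and 3.02. The median log2 fold change was -0.48. Fanci and Fancd2 form the clamp that is ubiquitinated at a crosslink. Fanci measured 88.5, 96.6, 57.9 and 59.0 CPM, with the knockout pair tightly grouped below. The ratio was 0.631 (0.532 to 0.749; edgeR adjusted p = 0.0104). Fancd2 measured 94.2, 109, 68.7 and 67.4 CPM. Its groups were likewise apart, with a ratio of 0.668 (0.555 to 0.805; edgeR adjusted p = 0.0168) whose adjusted p reached 0.0804 when WT replicate 2 was left out and 0.0674 for KO replicate 2.

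Fancl is the ubiquitin ligase that modifies this clamp, within a core complex that includes Fanca, Fancb, Fancc, Fancg and Fancm. Fancl was at 27.6, 30.6, 19.9 and 16.7 CPM, and its ratio was 0.628 (0.499 to 0.789; edgeR adjusted p = 0.0196). Leaving out WT replicate 2 gave an adjusted p of 0.0962, and leaving out KO replicate 2 gave 0.0842. Both knockout values were below both wild-type values. Fancc, at 29.4, 26.7, 18.0 and 15.5 CPM, had the second lowest ratio of all members, 0.598 (0.479 to 0.746; edgeR adjusted p = 0.0145). Its groups did not overlap, and its adjusted p rose to 0.0619 when WT replicate 1 was left out and to 0.0621 for KO replicate 2.

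The remaining core genes did not pass. Fancm, the translocase that anchors the core complex to DNA, had 86.2, 92.1, 71.7 and 69.9 CPM. The knockout libraries were the lower pair, with a ratio of 0.794 (0.672 to 0.938; edgeR adjusted p = 0.0578). Fancg had 20.2, 19.0, 15.6 and 14.5 CPM, also without overlap, and a ratio of 0.769 (0.618 to 0.957; edgeR adjusted p = 0.0846). The values of Fanca were 58.0, 62.1, 54.7 and 55.5 CPM, a small gap between the groups. Its ratio was 0.917 (0.774 to 1.09; edgeR adjusted p = 0.428). Fancb was low in all 4 libraries, at 17.5, 16.9, 15.7 and 16.7 CPM, and its ratio was 0.944 (0.759 to 1.17; edgeR adjusted p = 0.695). The knockout and wild-type libraries differed little in both genes, and their intervals extend above no change.

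Among the damage kinases and checkpoint genes, the effector kinases fell and the apical kinases did not pass the test. Chek2, the effector kinase downstream of Atm, had 67.7, 70.9, 46.0 and 40.3 CPM. Both knockout libraries were well below the wild type, at a ratio of 0.623 (0.517 to 0.749; edgeR adjusted p = 0.0112). Chek1, the effector downstream of Atr that restrains origin firing and entry into mitosis, had 72.03, 81.02, 53.79 and 52.97 CPM. Its groups were apart too, with a ratio of 0.697 (0.584 to 0.833; edgeR adjusted p = 0.0197), and adjusted p values of 0.102 and 0.0754 when WT replicate 2 or KO replicate 2 was left out.

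Atm, activated by double-strand breaks, measured 107, 124, 90.9 and 101 CPM, with a narrow gap between the groups. The ratio was 0.828 (0.681 to 1.01; edgeR adjusted p = 0.148). Atr, activated by single-stranded DNA at stalled forks, measured 72.5, 76.7, 67.0 and 78.5 CPM. KO replicate 2 was the highest library and KO replicate 1 the lowest, and the ratio was 0.974 (0.805 to 1.18; edgeR adjusted p = 0.849). Mdc1, the adaptor that binds phosphorylated H2AX, measured 93.5, 97.5, 93.5 and 111 CPM. It overlapped between groups at a ratio of 1.07 (0.883 to 1.30; edgeR adjusted p = 0.591). Whether the kinases differed from each other in their response was not tested.

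Rad50, Mre11a and Nbn make up the MRN complex that detects and trims broken ends. Nbn, the subunit that recruits Atm, was the member called, at 62.6, 67.1, 49.5 and 51.0 CPM. The knockout pair was the lower one and the ratio was 0.775 (0.653 to 0.920; edgeR adjusted p = 0.0465). This call did not outlast the removal of any library (adjusted p from 0.102 to 0.216) or the summing of transcripts (0.0544). Rad50, the zinc-hook subunit, varied more between replicates, at 45.2, 61.4, 31.1 and 40.5 CPM. Its knockout values were nevertheless both below its wild-type values, with a ratio of 0.672 (0.4999 to 0.902; edgeR adjusted p = 0.0619). Rad50 passed without WT replicate 1 (adjusted p = 0.034), with DESeq2 (0.0202) and with no filter on low counts (0.00297). Mre11a, the nuclease, had 47.7, 54.9, 41.6 and 44.2 CPM and a ratio of 0.835 (0.689 to 1.01; edgeR adjusted p = 0.157). Its groups did not overlap.

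Msh6, a subunit of the complex that recognises mismatched bases, was at 103, 115, 78.8 and 79.7 CPM. Its groups stood apart, with a ratio of 0.727 (0.611 to 0.865; edgeR adjusted p = 0.0262). Leaving out WT replicate 2 gave an adjusted p of 0.134, KO replicate 1 gave 0.0697 and KO replicate 2 gave 0.0891.

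Of the 5 end joining genes 0 passed edgeR's test, DESeq2's or limma voom's, and 1, Prkdc, had an unadjusted p under 0.05. Their median log2 fold change was -0.15. Over all genes tested 9.44% were called lower, so 0 calls among so few genes carries little information. The same holds for the short base excision and nucleotide excision lists that follow. Prkdc is the catalytic kinase of the complex that holds broken ends, with 132, 142, 116 and 103 CPM. Both knockout libraries were lower, at a ratio of 0.803 (0.669 to 0.965; edgeR adjusted p = 0.0866). Xrcc5 and Xrcc6, the Ku subunits that ring the DNA end, had ratios of 0.900 (0.754 to 1.07; edgeR adjusted p = 0.351) and 0.851 (0.703 to 1.03; edgeR adjusted p = 0.195). Their levels were 55.6, 60.7, 50.9 and 53.8 CPM and 44.0, 50.7, 41.1 and 39.6 CPM, each with a small gap between the groups. Lig4, the ligase, was sparse at 9.16, 10.2, 9.36 and 9.69 CPM. It overlapped at a ratio of 0.983 (0.757 to 1.28; edgeR adjusted p = 0.930). Its partner Xrcc4 had 6.16, 6.57, 5.10 and 6.48 CPM, with WT replicate 1 between the knockout libraries, and a ratio of 0.909 (0.657 to 1.26; edgeR adjusted p = 0.655).

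The single-strand break and base excision genes also gave 0 calls out of 3 with edgeR, DESeq2 and limma voom, and 0 at an unadjusted p under 0.05. Parp1, the enzyme that marks strand breaks with poly(ADP-ribose), was the most abundant member, at 269, 294, 252 and 288 CPM. Its groups overlapped, with a ratio of 0.959 (0.777 to 1.18; edgeR adjusted p = 0.772). Xrcc1, the scaffold that Parp1 recruits, had 52.9, 47.9, 53.7 and 49.9 CPM. It overlapped as well, at a ratio of 1.03 (0.857 to 1.23; edgeR adjusted p = 0.828). Ogg1, the glycosylase for oxidised guanine, had 17.3, 17.2, 14.2 and 14.4 CPM. The knockout pair was lower without passing the test, at a ratio of 0.826 (0.663 to 1.03; edgeR adjusted p = 0.182).

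In nucleotide excision repair 0 of 4 members passed with edgeR, DESeq2 or limma voom, and 0 had an unadjusted p under 0.05. The summed level was 94.97 and 104 CPM in the wild type and 99.4 and 100.3 CPM in the knockout. Ercc2, a helicase of the transcription factor TFIIH, had 64.0, 71.1, 69.7 and 71.7 CPM and a ratio of 1.05 (0.878 to 1.24; edgeR adjusted p = 0.705). Its groups overlapped, as did those of Xpc, the damage sensor, at 17.5, 18.8, 19.1 and 17.0 CPM. The ratio of Xpc was 0.995 (0.796 to 1.24; edgeR adjusted p = 0.976). Ercc1, a subunit of the nuclease that cuts 5′ of the lesion, had 7.80, 8.87, 6.08 and 7.68 CPM, and Xpa, which verifies damage, 5.60, 5.35, 4.49 and 3.90 CPM. Neither passed, at ratios of 0.824 (0.603 to 1.13; edgeR adjusted p = 0.334) and 0.767 (0.554 to 1.06; edgeR adjusted p = 0.209). They were among the least deeply read members, with 181 to 493 reads in a library, and their intervals are wide.

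Set side by side, the recombination, RecQ and Fanconi anaemia genes gave 11 of 16 calls and a median log2 fold change of -0.57, with summed levels of 1415, 1470, 977 and 959 CPM. Their count was 5 when WT replicate 2 or KO replicate 2 was left out, 8 for WT replicate 1 and 9 for KO replicate 1. The end joining, base excision and nucleotide excision genes gave 0 of 12 and a median of -0.15, with summed levels of 681, 733, 642 and 666 CPM. In the first of these sets the knockout sums were far below the wild-type sums. In the second the gap was narrower. The second set joins only groups that held 0 calls each, so its count of 0 was fixed by how it was put together. The first set joins groups with 5 of 6, 2 of 2 and 4 of 8 called lower, so its count also follows from that choice. The contrast between the sets therefore adds nothing to the counts of the single groups. The checkpoint, MRN and mismatch groups, with 2 of 5, 1 of 3 and 1 of 1 called lower, are in neither set. Among all genes with at least the mean CPM of the lowest member, 12.1% were called lower. The difference between the sets was not tested.

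On the per-length scale of the deposited RPKM values, the wild-type order of levels ran from Parp1 at 35.4 ± 4.16 (SD, n = 2) through Blm at 19.7 ± 0.933, Brca1 at 18.8 ± 1.49, Chek2 at 14.8 ± 1.30 and Rad54l at 13.1 ± 0.983 down to Xpa at 2.75 ± 0.0614, Xpc at 2.40 ± 0.250, Xrcc4 at 1.98 ± 0.1996 and Lig4 at 1.14 ± 0.148. Blm was above Brca1 in both wild-type libraries, at 19.1 and 20.4 against 17.7 and 19.8. That difference was not tested. Brca2, which fell furthest, was only rank 22 of 37 at 5.65 ± 0.0540. The called members were thus spread over the range of levels, from Blm at rank 2 to Fancc at rank 30. By transcript length, 3 of 8 members over 6000 bases were called lower, 5 of 8 between 4000 and 6000, 6 of 15 between 2000 and 4000, 1 of 5 between 1000 and 2000 and 0 of 1 below that. In the same order, all genes gave 121 of 1523, 255 of 2628, 568 of 6138, 310 of 3453 and 165 of 1286 lower. The medians of all genes were 0.10, 0.07, 0.04, -0.02 and -0.17 on the log2 scale, beside -0.32, -0.56, -0.26, -0.28 and -0.38 for the members.

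A further 106 repair and checkpoint genes outside the 37 were described in the same way. Of these 30 were called lower, 2 higher and 74 neither, with a median log2 fold change of -0.19. Over all genes tested 9.44% were called lower and 11.4% higher. The count called lower was 13 when WT replicate 1 was left out, 7 for WT replicate 2, 21 for KO replicate 1 and 8 for KO replicate 2. Of the recombination genes among them 11 of 21 fell (Rad51c, Rbbp8, Exo1, Rad51ap1, Brip1, Eme1, Smc6, Rpa1, Rpa2, Rpa3 and Recql4), a count that was 2 to 6 with a library left out. The checkpoint list had 8 of 21, or 3 to 8 with a library left out. The other Fanconi list gave 1 of 7 (Usp1), end joining 0 of 4 (1 lower and 1 higher at an unadjusted p under 0.05), base excision 4 of 20, nucleotide excision 0 of 17 (2 at an unadjusted p under 0.05, and 1 each with DESeq2 and voom) and translesion or direct repair 2 of 10. Ercc5 and Polk were the 2 higher ones.

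**Figure D3:**
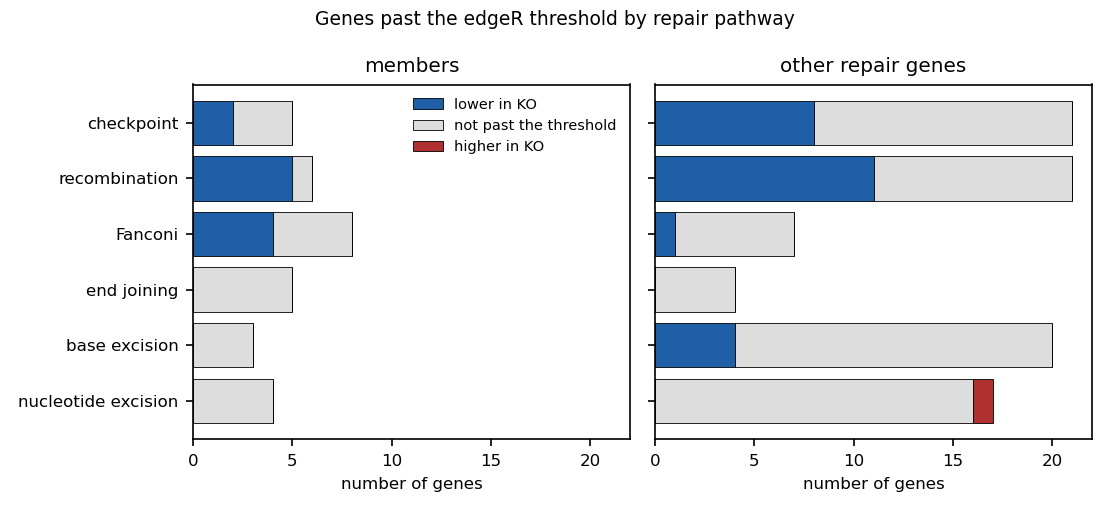
Bars count genes in 6 repair pathways, members in the left panel and further repair genes in the right panel, split into lower in KO, not past the threshold and higher in KO at an edgeR adjusted p of 0.05. Recombination has 5 of 6 and 11 of 21 genes lower, and end joining has 0 of 5 and 0 of 4. Over all genes tested 9.44% were called lower, so 0 calls among so few end joining genes carries little information.

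The 5 further repair genes with the smallest p among those that fell were Neil3, Clspn, Polh, Rnf168 and Ppm1d. Neil3, a glycosylase that can also unhook crosslinks, went from 87.9 ± 1.59 to 42.5 ± 5.89 CPM (SD, n = 2 per genotype), a ratio of 0.483 with an edgeR adjusted p of 0.00673. Clspn, the adaptor through which Atr activates Chek1, went from 151 ± 4.05 to 88.5 ± 1.09 CPM (edgeR adjusted p = 0.00752). Polh, the polymerase that bypasses ultraviolet lesions, went from 152 ± 2.20 to 91.9 ± 6.55 CPM (edgeR adjusted p = 0.0091). In these 3 genes the gap between genotypes was many times the replicate SD. They were picked by smallest p, so a wide gap follows from the choice and adds no support. Rnf168, which ubiquitinates histone H2A at breaks, went from 88.0 ± 1.10 to 56.8 ± 1.61 CPM (edgeR adjusted p = 0.0107). Ppm1d, the phosphatase that switches off damage signalling, went from 105 ± 5.23 to 68.6 ± 0.456 CPM (edgeR adjusted p = 0.0112, and 0.0505 without WT replicate 2). Of the higher ones, Ercc5, the nuclease that cuts 3′ of a lesion, went from 31.5 ± 2.64 to 43.7 ± 2.66 CPM (edgeR adjusted p = 0.0342), and the bypass polymerase Polk from 18.4 ± 0.395 to 25.6 ± 1.08 CPM (edgeR adjusted p = 0.0349). Both lost the call whichever library was left out, at adjusted p of 0.0716 to 0.158 and 0.0886 to 0.158.

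A list of 13 p53 targets of the checkpoint and of repair, of which Xpc is a member and Ddb2, Polk and Ppm1d are among the further repair genes, moved in both directions. It gave 5 higher, 3 lower and 5 neither, with a median log2 fold change of 0.20. Cdkn1a, the cyclin-dependent kinase inhibitor p21, stood at 6.44, 5.47, 110 and 96.2 CPM, a 17.4-fold rise (edgeR adjusted p = 8.95e-05), and it was singled out here after its values were seen. Both knockout libraries were far above the wild type. The others called higher were Ccng1, Sesn2, Polk and Mdm2, and those called lower were Sesn1, Btg2 and Ppm1d. With a library left out the list had 2 to 3 higher and 1 to 3 lower. The p53 targets that act in nucleotide excision repair did not pass: Xpc was given above, and Ddb2, the ultraviolet damage sensor, had a ratio of 0.758 (edgeR adjusted p = 0.113).

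Many recombination and Fanconi genes are transcribed mainly in cycling cells, so the level of 25 proliferation genes was set beside the members. Of these 15 were called lower and 0 higher (22 and 0 at an unadjusted p under 0.05, 20 and 0 with DESeq2), with a median log2 fold change of -0.51 and all 25 below 0. Their summed level was 14567, 15430, 10152 and 8729 CPM. The 3 with the smallest p were E2f1, an S phase transcription factor (ratio 0.544, edgeR adjusted p = 0.00716), Pola1, the catalytic subunit of DNA polymerase alpha (0.601, 0.0076), and Tk1, thymidine kinase (0.531, 0.00798). Leaving out a library changed the count to 12 (WT replicate 1), 6 (WT replicate 2), 12 (KO replicate 1) or 4 (KO replicate 2). The summed level had a KO/WT ratio of 0.629, beside 0.769 for the members' sum. Mki67 alone made up 6269, 6004, 3971 and 2786 CPM of the proliferation sums. Its log2 fold change was -0.86, so the ratio of 0.629 leans on that gene. The part of proliferation in the members' levels was not tested.

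Cell type markers also moved with genotype. Of 18 erythroid markers 13 were called lower, with a summed level of 44815 to 48775 CPM in the wild type and 22198 to 29520 CPM in the knockout. Hepatocyte markers were higher in 6 of 14, with sums of 42137 to 57977 and 73044 to 88502 CPM. Endothelial markers were higher in 6 of 11 (536 to 590 and 876 to 930 CPM), megakaryocyte markers in 7 of 9 (615 to 665 and 974 to 1175 CPM) and granulocyte markers in 5 of 10 (660 to 786 and 1009 to 1322 CPM). The granulocyte markers Prtn3 and Ctsg went the other way, with log2 fold changes of -0.33 and -0.50, and did not pass. Of 7 macrophage markers 2 were called lower and 2 higher (262 to 355 and 183 to 238 CPM), and 3 of 6 B lymphoid markers were lower (7.11 to 9.94 and 3.17 to 3.35 CPM). All 8 cardiac markers were lower, from 56.6 CPM in WT replicate 1 and 271 CPM in WT replicate 2 to 3.72 and 6.34 CPM, so that WT replicate 2 stood apart. No listed marker was at 0 in all 4 libraries, and the defining erythroid and hepatocyte genes were abundant. With a library left out, the erythroid count was 6 (WT replicate 1), 5 (WT replicate 2), 16 (KO replicate 1) or 4 (KO replicate 2), and the hepatocyte count 8, 2, 4 or 6 in the same order. The macrophage markers called higher were 1, 0, 2 and 0, and the B lymphoid markers called lower 1, 3, 1 and 1. Endothelial, megakaryocyte, granulocyte and cardiac counts stayed at 4 to 6, 5 to 7, 4 to 7 and 7 to 8. The part of these cell types in the members' levels was not tested.

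Reads across known splice junctions gave a second readout of level from the same libraries, which may share reads with the transcript counts; it was added after the data were seen. Lig4, with 13 junction reads in all, could not be tested. Of the other 36 members 10 were called lower and 0 higher (Mdc1 alone was higher at an unadjusted p under 0.05), where 4.4% of 11247 genes were called lower and 6.19% higher. The median log2 fold change was -0.36, beside 0.02 over all genes. Brca2 had 244, 460, 173 and 174 junction reads, out of 4875332, 8624429, 7150406 and 6941562 known junction reads. It was again the member that fell furthest, by 1.15 on the log2 scale (edgeR adjusted p = 0.00328). The others were Chek2, Rad50, Brca1, Bard1, Rad54l, Wrn, Fancc, Fancd2 and Fancl. Fanci, which passed with any library left out, did not pass here (log2 fold change -0.45, edgeR adjusted p = 0.0941), so that Chek2, Brca2, Bard1 and Rad54l were the members called in every alternative run.

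Mdc1 was the member whose 2 readouts stood furthest apart. It had 27.9, 36.6, 48.1 and 49.7 junction reads per 1000000, with both knockout libraries above both wild-type libraries, whereas its transcript levels overlapped. The junction log2 fold change was 0.59 (edgeR adjusted p = 0.0721), against 0.10 on transcript reads, and neither passed. The gap between readouts was not tested.

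**Figure D4:**
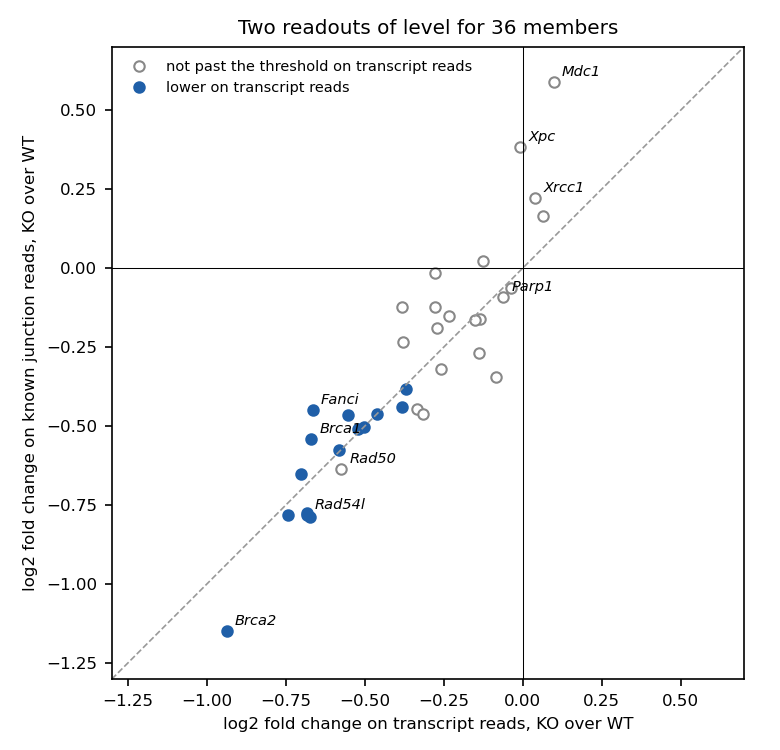
Each point is 1 of 36 members, with the log2 fold change (KO over WT) on transcript reads on the x axis and on summed known junction reads on the y axis; filled points were called lower on transcript reads. Brca2 lies lowest on both axes (-0.94 and -1.15), and Mdc1 lies highest on the y axis at 0.59.

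Since hnRNP L regulates splicing, relative use of each known junction within its gene was tested apart from level, with edgeR's diffSpliceDGE. Of 718 junctions in 36 members 0 passed an adjusted p of 0.05, and the lowest adjusted p was 1.00. Over all 103333 junctions 2 passed (0.00194%). At an unadjusted p under 0.05 there were 18 member junctions, or 2.51%, beside 2.38% of all junctions. Leaving out WT replicate 2 gave 45 such member junctions and leaving out KO replicate 2 gave 11. No alternative gave a member junction past the adjusted threshold. A tested member junction had a median of 55 reads over the 4 libraries, and 515 of the 718 had fewer than 100, which limits the precision of each.

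The 3 member junctions with the smallest unadjusted p were singled out after their values were seen. In Prkdc, a DNA kinase, the junction numbered 77 of 85 from the 5′ end had 2, 1, 11 and 22 reads. In Fancg the second of 14 junctions had 4, 4, 21 and 18 reads, or 3.10%, 2.16%, 12.7% and 13.8% of the gene's tested junction reads. In Brca1 the last of 22 junctions had 82, 116, 28 and 41 reads, or 12.7%, 8.13%, 3.59% and 5.49%. The knockout libraries were apart from the wild type in each, higher in Prkdc and Fancg and lower in Brca1, and each had an adjusted p of 1.00. Across the 30 members with at least 10 known junctions, the median share of junction reads on the 3′ side of the gene was 57.3%, 58.8%, 59.9% and 59.2% in the 4 libraries. Of the 9 members with several annotated transcripts, Fancb had the widest gap between transcripts, 0.09 in log2 ratio.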

How the data were processed

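RNA of fetal liver cells from 2 wild-type and 2 hnRNP L -/- mice was depleted of ribosomal RNA and sequenced, per the labels' protocols. The authors deposited a raw count of reads per RefSeq transcript, made per the file headers from primary alignments with a minimum mapping quality and score. The same deposited tables hold reads per nucleotide, a coverage signal over transcript length, which entered no test. They also hold RPKM, normalised by the authors to mapped reads per the file headers. RPKM was used only for the order of levels and to see whether groups overlapped. A second deposited table holds junction counts, 1 for each of 1921627 splice junctions. No source used here gives the aligner, the genome build, the junction rules or strand use, so overlapping genes may share reads.

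The 28283 transcripts were reduced to 22011 genes by most reads. Levels were tested with edgeR 4.0.16 (R 4.3.3; TMM, filterByExpr, glmQLFit, glmQLFTest; 15028 genes), after a check on simulated data, and junction use with diffSpliceDGE (at least 10 reads). Alternatives were RLE scaling, DESeq2 1.42.0, voom in limma 3.58.1, other filters, summed transcripts, a replicate block, each library left out and, added later, summed junction reads. Labels give no replicate numbers that pair the mice, and replicates are numbered in accession order. SD is over n = 2. Intervals come from the edgeR fit.

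The members and all lists were chosen with earlier results of these data known. By the rule set beforehand, named genes were Hnrnpl, all members, and the 3 proliferation genes with the smallest p. The rule added at most 5 called further repair genes per direction, by smallest p, and member junctions past the threshold, of which there were 0. Outside that rule, further recombination genes and Usp1 were named because they were called. The other RecQ genes, p53 targets and the junctions singled out were named outside it too. Of the erythroid markers, Ahsp was not matched. The mismatch repair list among the further genes is not reported here.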

Additional observations from a re-analysis of the deposited data

How the results depend on the processing

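Of 37 members, 15 were called. The count was 15 with RLE scaling, voom and a minimum of 1 CPM, 16 with DESeq2 and with no filter, 13 with transcripts summed and 10 of 36 on summed junction reads (chosen after seeing the data). With a library left out it was 6 to 12. The 106 further repair genes gave 32 calls, 7 to 21 with a library left out and 14 on junction reads. Proliferation gave 15 calls, 4 to 12 with a library left out. All genes gave 3130 calls, 1022 to 2492 with a library left out, 1191 on junction reads and 4342 with no filter. Hnrnpl stayed lower, with a log2 fold change of -1.14 to -0.74 when a library was left out. The causes of these shifts were not tested.

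With the file numbers as a replicate block, the calls were 17 members, 38 further repair genes, 18 proliferation genes and 4341 genes in all; Rad50 (edgeR adjusted p = 0.00651) and Fancm (0.0415) were added. The numbers are shared by file names only, so this is no evidence of pairing.

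Small changes that did not pass took either sign, as ranges of the log2 fold change with a library left out: Atr -0.1566 to 0.068, Mdc1 -0.0309 to 0.2121, Xrcc4 -0.3218 to 0.0191, Lig4 -0.0981 to 0.0568, Xrcc1 -0.0299 to 0.1119, Parp1 -0.1611 to 0.0292, Ercc2 -0.0103 to 0.1431, Xpc -0.0971 to 0.0738 and Gadd45a -0.3408 to 0.1572. Junction reads gave Fanca 0.0233, Xpc 0.3837 and Gadd45a 0.1533, and no filter gave Xpc 0.0013.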

Other observations

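An unannotated junction of Atm, at chr9:53269115-53270586 in the coordinates of the files, was read 43 and 85 times in the wild-type pair and 43 and 55 times in the knockout pair. Per 1000000 known junction reads this was 8.82, 9.86, 6.01 and 7.92. Its 226 reads exceeded those of each of the 63 known junctions of Atm, whose highest had 164 and whose median was 46. The pair of known junctions within its span, 53269115 to 53269217 and 53269225 to 53270586, leave only 8 bases between them, and both had 0 reads in all 4 libraries. The junction was singled out after its values were seen. Unannotated junctions together took 1.55%, 1.57%, 1.54% and 1.44% of the members' junction reads.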
